A study of Homo sapiens with 12 samples.

Results

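The collagen chain genes were taken from the gene count table as every protein-coding row whose symbol had the form COL, a number, A and a number. These were 43 genes of 58735 rows, after 1 further chain gene that was not analysed here had been set aside. Of the 43, 27 had enough counts to be tested, among 17829 tested genes. The series measured mRNA by RNA-Seq in A549, an adherent cell line from a human lung adenocarcinoma, with and without GFI1, a zinc finger transcriptional repressor of blood cell development. There were 4 groups of 3 libraries, namely attached control, attached GFI1, floating control and floating GFI1. The GFI1 cells carried a lentiviral GFI1 vector with GFP and were sorted for GFP, the vector of the control cells was not stated for these libraries, though the study's xenograft experiments used empty vector, and the floating cells had been held in suspension for 48 h on ultra-low attachment plates, while attached cells grew on culture-treated plastic. All cells shared RPMI1640 medium with 10% serum. Since cells were transduced and sorted, an effect of GFI1 here means the difference between these cell populations.

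A collagen molecule is a triple helix of chains that are chosen in the endoplasmic reticulum, where each chain joins with particular partners, mostly of its own type. Type IV chains form the mesh of basement membranes, where COL4A1 pairs with COL4A2 and COL4A5 joins either COL4A6 or COL4A3 and COL4A4. Fibrillar chains such as COL1A1, COL3A1, COL5A1 and COL5A2 build the fibrils of stroma, FACIT chains such as COL12A1 bind to those fibrils, COL7A1 forms the anchoring fibrils below epithelia, and COL18A1, a multiplexin, is a heparan sulfate proteoglycan of basement membranes whose end fragment is endostatin.

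The type IV genes lie as head-to-head pairs, so that each pair shares one stretch of DNA between its RefSeq start sites. They are shown, since the values below are compared within these pairs, from RefSeq promoter windows on GRCh38.p14, plus strand, 5′ to 3′. The COL4A1/COL4A2 stretch (chr13:110307158-110307283) is the whole distance of 126 bases between the RefSeq starts. The COL4A3/COL4A4 stretch (chr2:227164374-227164455) is the middle 82 of 418 bases, and the COL4A5/COL4A6 stretch (chrX:108439588-108439708) is the middle 121 of 379 bases. The gene spans of the count table differ from these starts. By those spans the COL4A1/COL4A2 stretch lies inside COL4A2, which begins at 110305812. Its first part also lies inside COL4A1, which ends at 110307233. Nearly all of the COL4A3/COL4A4 stretch lies inside COL4A4, which ends at 227164453. The COL4A5/COL4A6 stretch lies between its genes. Capitals mark AATC, the core of the GFI1 motif, the CCAAT box and the GC box GGGCGG, each searched on both strands as AATC or GATT, CCAAT or ATTGG, and GGGCGG or CCGCCC.
COL4A1/COL4A2: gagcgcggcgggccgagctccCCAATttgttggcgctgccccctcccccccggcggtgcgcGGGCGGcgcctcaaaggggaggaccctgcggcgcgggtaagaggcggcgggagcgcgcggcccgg
COL4A3/COL4A4: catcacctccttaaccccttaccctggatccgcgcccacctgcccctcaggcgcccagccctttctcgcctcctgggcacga
COL4A5/COL4A6: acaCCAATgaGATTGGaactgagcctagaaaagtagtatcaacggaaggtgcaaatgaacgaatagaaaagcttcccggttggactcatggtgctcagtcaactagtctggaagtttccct

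The 3 stretches differed in composition. The COL4A1/COL4A2 stretch was 80.2% G or C with 20 CpG, the COL4A3/COL4A4 stretch 67.1% with 5 CpG and none of the motifs, and the COL4A5/COL4A6 stretch 44.6% with 3 CpG. The GATT of the last stretch overlaps 1 of its 2 CCAAT boxes, which is the ATTGG on the other strand. Promoter windows of 300 bases were at hand for 31 of the 43 chains, with 43 windows in all. AATC was in 26 of these 43 windows, against 69.0% of all 35116 windows. CCAAT was in 13 (34.6% of all windows) and the GC box in 24 (45.0% of all windows). A letter match is a description and not a binding site.

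Library totals ran from 17014188 to 20748677 counts, and the 43 chains took 0.212% to 0.272% of them. GFI1 had 4 to 12 counts in the control libraries and 5154 to 12796 in the GFI1 libraries, so the labels fit the expressed gene. The epithelial markers KRT7, KRT8 and KRT18 were abundant, and the lung markers SFTPC and NKX2-1 were at most 0.772 and 1.98 CPM (each library's counts scaled by its total and TMM). The summed CPM of 9 epithelial markers was 10388 to 10989 in attached control, 4226 to 4343 in attached GFI1, 6531 to 6942 in floating control and 3045 to 3416 in floating GFI1. Of 10 fibroblast and mural markers, DCN and FAP were at 0 in every library and the sum stayed between 15.5 and 23.2 CPM, although members differed in direction. TWIST2 was at 10.8 to 13.0 CPM in control and 2.26 to 4.48 in GFI1 libraries, and PDGFRB at 0.0574 to 0.296 in control and 1.74 to 3.64 in GFI1 libraries. Blood markers summed to at most 0.496 CPM, and 3 endothelial markers summed to 0.109 to 0.602 CPM in control and 3.55 to 5.52 CPM in GFI1 libraries, mainly as CDH5 and VWF. The part of these markers in the chain values was not tested. In such bulk libraries, fewer cells that express a gene and less RNA per cell cannot be told apart.

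Compared per length, as RPKM (CPM per kilobase of the gene length given in the table), 8 chains carried most of the collagen mRNA. These lengths were 19293 bases for COL4A2, 14738 for COL4A1, 11071 for COL7A1 and 8525 for COL18A1. Whether they match the transcripts made in these cells was not tested. The order of chains, their sums and shares and the ratios between chains depend on these lengths, while comparisons of 1 chain between groups do not. These top 8 of each group held 92.1% of the summed RPKM in attached control, 92.3% in attached GFI1, 89.9% in floating control and 92.7% in floating GFI1. In attached control cells the order was COL18A1 (47.4 ± 0.577 RPKM, SD, n = 3), COL5A2 (34.4 ± 0.626), COL7A1 (33.0 ± 0.885), COL4A2 (30.5 ± 1.31), COL4A6 (26.3 ± 0.949), COL5A1 (21.5 ± 0.697), COL4A1 (20.6 ± 0.499) and COL4A5 (17.0 ± 0.0548). The neighbours COL5A2 and COL7A1, and likewise COL5A1 and COL4A1, overlapped between libraries. The ninth chain, COL6A1, was at 4.002 RPKM, well below the eighth.

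The order differed in the other groups. In attached GFI1 cells COL18A1 (62.2 ± 1.41 RPKM) and COL7A1 (52.9 ± 0.527) led, and COL5A2 stood at 3.60 ± 0.280. In floating control cells COL5A2 (37.5 ± 0.896) led, with COL18A1 (34.6 ± 1.41) and COL4A6 (34.3 ± 1.25) too close to order. In floating GFI1 cells COL7A1 (56.1 ± 4.49) and COL18A1 (48.9 ± 0.295) led, followed by COL4A5 (33.3 ± 1.26) and COL4A6 (20.2 ± 0.679).

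Summed over the 43 chains, the RPKM was 250.5 ± 5.78 in attached control, 222.3 ± 1.89 in attached GFI1, 214.1 ± 4.98 in floating control and 199.7 ± 4.25 in floating GFI1 (SD, n = 3). The groups did not overlap in this sum, and the sums differed less than their make-up. In summed CPM, which does not use the lengths, attached GFI1 (2288 to 2325) and floating control (2212 to 2312) overlapped. The fibrillar share was 24.6% ± 0.0409 in attached control and 13.3% ± 0.0934 in attached GFI1, and 23.8% ± 0.449 and 9.60% ± 0.196 in the floating groups. The type IV share was 38.4% ± 0.387 and 28.7% ± 0.0878 in attached cells, and 41.8% ± 0.155 and 31.4% ± 1.26 in floating cells. The multiplexins, nearly all COL18A1, and the class holding COL7A1 had the opposite order. The multiplexin share was 18.9% ± 0.203 in attached control and 28.0% ± 0.492 in attached GFI1, and the share of the class of COL7A1 was 13.8% ± 0.161 and 24.0% ± 0.351.

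**Figure D1:**
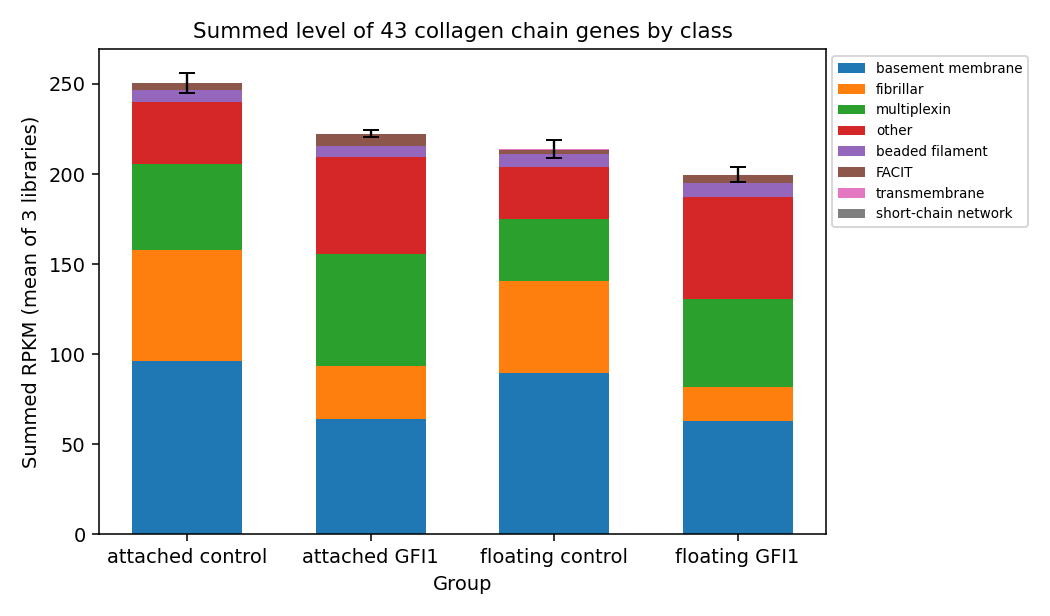
Summed RPKM of the 43 chains (y axis, mean of 3 libraries) in the 4 groups (x axis), stacked by collagen class, with the SD of the whole sum as the black bar. The whole sum went from 250.5 in attached control to 199.7 in floating GFI1, while the fibrillar segment went from 61.7 to 19.2 RPKM.

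The other 16 chains had too few counts to test, with the highest count in any library in parentheses. These were the fibrillar chains COL2A1 (7), COL24A1 (5), COL1A2 (2) and COL11A1 (1), the FACIT chains COL14A1 (9), COL9A2 (8), COL9A1 (2) and COL19A1 (0), and the beaded filament chains COL6A3 (13), COL6A6 (5) and COL6A5 (0). The rest were COL8A2 (3) and COL8A1 (2) of the short-chain networks, COL23A1 (4) and COL25A1 (2) of the transmembrane class, and COL15A1 (8) of the multiplexins. In type I collagen COL1A1 had 53 to 256 counts per library and COL1A2, its usual partner, 0 to 2. In type VI, COL6A1 and COL6A2 were tested and their partner COL6A3 was not. Of the 27 tested chains, 19 had at least 10 counts in every library, so some chains passed through the group in which they are high.

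GFI1 expression changed most chains, with as many calls higher as lower, while calls of 2-fold or more were more often lower. In attached cells 11 chains rose (29.5% of all tested genes did so), 11 fell (32.8%) and 5 did not pass edgeR's quasi-likelihood test at an adjusted p of 0.05, that is 22 of 27 called against 62.3% of all tested genes. With a limit on size, 15 of 27 (55.6%) passed the test with a change of 2-fold or more, against 18.2% of all genes, with 5 higher (9.7% of all genes) and 10 lower (8.51%). Since low chains can pass the filter through the group in which they are high, the count was also taken over genes with at least 10 counts in every library, where it was 8 of 19 chains (42.1%) against 12.9% of genes attached, and 10 of 19 (52.6%) against 12.4% floating. In attached cells, control and GFI1 libraries did not overlap for 21 of 27 chains, against 67% of all genes. In floating cells 10 rose (29.3% of all genes) and 10 fell (31.1%), so that 20 were called against 60.4%. Of these, 15 passed with 2-fold or more (17.3% of all genes), 6 higher (8.44%) and 9 lower (8.82%). Libraries did not overlap for 22 chains, against 64.4% of all genes. The median log2 fold change of the chains was 0.08 in attached and 0.19 in floating cells, against -0.01 and 0.01 for all genes. The median size without sign was 1.03 and 1.05, against 0.40 and 0.38 for all genes.

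**Figure D2:**
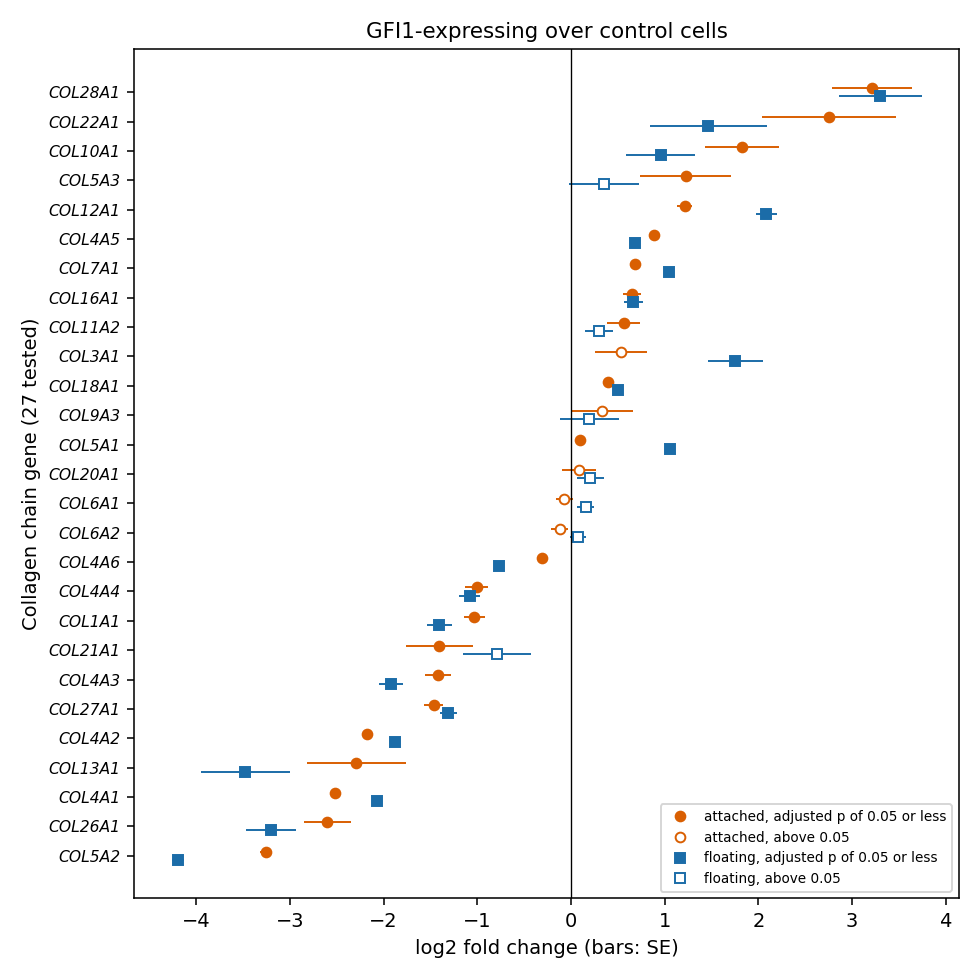
Log2 fold change of GFI1 over control cells (x axis, bars: SE) for the 27 tested chains (y axis), in attached cells (orange circles) and floating cells (blue squares), filled where the adjusted p was 0.05 or less. COL5A2 lies lowest of the abundant chains at -3.26 and -4.20, and COL28A1 highest at 3.21 and 3.30.

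Of the 6 type IV genes, 5 fell with GFI1 in both states and COL4A5 alone rose. COL4A1 and COL4A2, the ubiquitous basement membrane chains, fell together. COL4A1 (chr13:110148963-110307233) was at 299.5, 298.3 and 311.6 CPM in attached control libraries and at 52.3, 51.3 and 54.7 in attached GFI1. In floating cells it was at 178.2, 166.4 and 176.3 in control and at 38.5, 44.9 and 40.3 in GFI1 libraries. The GFI1 libraries were thus the lowest in both states, without overlap. This was 5.75-fold lower with GFI1 in the attached state (log2 -2.52 ± 0.05, SE) and 4.21-fold lower in the floating state (log2 -2.07 ± 0.05).

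COL4A2 (chr13:110305812-110513209) had 575.3, 573.2 and 617.9 CPM in attached control and 130.03, 130.1 and 130.1 in attached GFI1. Its floating values were 400.2, 388.3 and 383.6 in control and 102.9, 109.8 and 105.3 in GFI1 libraries. It was lower in every GFI1 library, by 2.18 ± 0.04 attached and 1.88 ± 0.04 floating on the log2 scale. The annotated spans of these opposite-strand genes overlap by 1422 bases at their 5′ ends, and the strand setting of the counting was not stated, so reads there cannot be told apart. The ratio of COL4A1 to COL4A2 per length was 0.674 ± 0.0123 (SD, n = 3) in attached control, 0.531 ± 0.0175 in attached GFI1, 0.582 ± 0.0204 in floating control and 0.509 ± 0.0237 in floating GFI1. COL4A1 thus stood lower relative to its partner in each GFI1 group than in its control.

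COL4A3 and COL4A4, chains of specialised basement membranes such as that of the kidney glomerulus and the lung alveolus, were below 1.5 RPKM in every group and fell as well. COL4A3 was at 8.40, 7.98 and 7.58 CPM in attached control, 3.38, 3.09 and 2.50 in attached GFI1, 13.2, 11.7 and 12.2 in floating control and 2.92, 3.58 and 3.23 in floating GFI1. COL4A4 was at 9.89, 10.3 and 9.30 CPM, then 5.07, 4.57 and 5.06, then 10.7, 11.9 and 11.7, then 6.23, 4.63 and 5.32 in the same order. Control and GFI1 libraries did not overlap for either gene. The log2 fold changes with GFI1 were -1.42 ± 0.14 and -1.92 ± 0.13 for COL4A3 and -1.01 ± 0.12 and -1.08 ± 0.12 for COL4A4, attached and floating. An antisense gene that overlaps COL4A3 had up to 29 counts, up to 54.7% of those of COL4A3 in a library. Reads of the overlap cannot be told apart without a stated strand setting.

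COL4A5 and COL4A6 moved apart. COL4A5 (chrX:108439844-108697545), a chain of both other type IV molecules, was at 202.4, 201.5 and 202.8 CPM in attached control and at 369.1, 384.7 and 369.9 in attached GFI1. In floating cells it was at 247.5, 248.1 and 241.4 in control and at 404.4, 378.1 and 403.6 in GFI1 libraries. It rose by log2 0.89 ± 0.04 in attached and 0.69 ± 0.04 in floating cells, higher in all 6 GFI1 libraries.

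COL4A6 (chrX:108155607-108439497), the partner of COL4A5 in the membranes of smooth muscle and many epithelia, had 240.4, 238.2 and 254.5 CPM in attached control and 198.5, 197.7 and 194.3 in attached GFI1. Its floating values were 331.2, 316.8 and 308.1 in control and 187.4, 180.7 and 193.3 in GFI1 libraries. It fell by 0.31 ± 0.04 in attached and by 0.77 ± 0.04 in floating cells on the log2 scale. The ratio of COL4A5 to COL4A6 per length was 0.648 ± 0.0212 and 0.603 ± 0.0162 in attached and floating control, and 1.49 ± 0.0335 and 1.65 ± 0.0310 in the GFI1 groups. Every GFI1 library had more COL4A5 than COL4A6 per length, and every control library had less. The stretch shown above was taken from the COL4A6 RefSeq start nearest COL4A5. Which starts these cells use was not tested, and counts per gene do not show it.

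**Figure D3:**
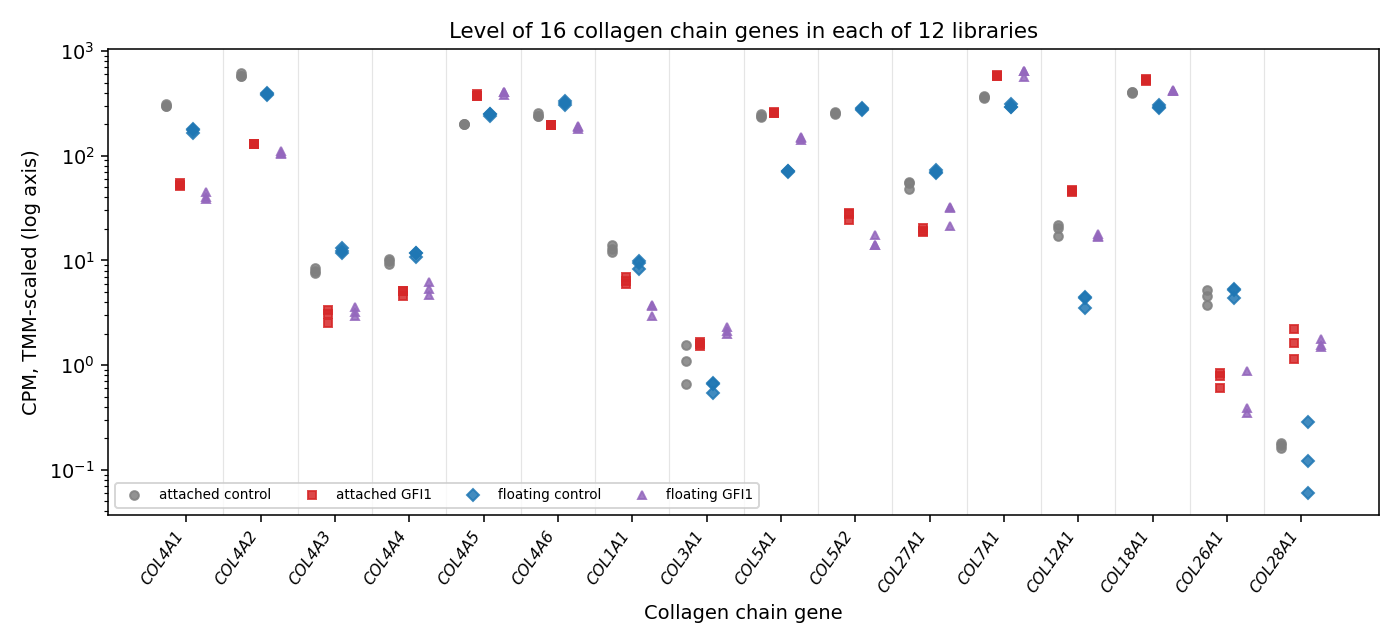
Level of 16 chains (x axis) as TMM-scaled CPM on a log axis (y axis) in each of the 12 libraries, with the groups as grey circles (attached control), red squares (attached GFI1), blue diamonds (floating control) and purple triangles (floating GFI1). COL5A2 lies between 251.5 and 285.3 CPM in the 6 control libraries and between 14.1 and 28.1 in the 6 GFI1 libraries.

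Among fibrillar chains the largest change was in COL5A2 (chr2:189031896-189225312), which with COL5A1 makes the common type V molecule that starts and limits the width of collagen fibrils. COL5A2 was at 257.9, 251.5 and 260.7 CPM in attached control and at 24.4, 28.1 and 27.9 in attached GFI1. In floating cells it was at 280.9, 285.3 and 272.2 in control and at 14.2, 14.1 and 17.4 in GFI1 libraries. The gap between control and GFI1 libraries was far wider than the spread within any group. It was 9.55-fold lower with GFI1 in attached cells (log2 -3.26 ± 0.06, edgeR adjusted p = 3.81e-24) and 18.3-fold lower in floating cells (log2 -4.20 ± 0.06, edgeR adjusted p = 1.44e-25).

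COL5A1 (chr9:134641774-134844843), its partner, did not follow. It was at 233.3, 238.9 and 248.7 CPM in attached control and at 257.0, 262.0 and 253.7 in attached GFI1. In floating cells it was at 71.1, 70.1 and 71.6 in control and at 149.1, 150.3 and 142.6 in GFI1 libraries. The floating groups lay far apart, while the attached groups lay close without overlap. The log2 fold change with GFI1 was 0.10 ± 0.04 in attached cells (edgeR adjusted p = 0.0321) and 1.05 ± 0.04 in floating cells. The attached call was lost without the filter on low counts (log2 0.08), and it was lost when any of 4 single attached libraries was left out, at log2 0.08 and 0.09 without control replicates 1 and 2, and 0.10 and 0.09 without GFI1 replicates 1 and 2.

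The type V partner ratio moved further than any type IV ratio. COL5A1 to COL5A2 per length was 0.624 ± 0.0182 in attached control, 6.43 ± 0.517 in attached GFI1, 0.169 ± 0.00585 in floating control and 6.53 ± 0.922 in floating GFI1. Thus COL5A2 was the more abundant partner in all 6 control libraries and COL5A1 in all 6 GFI1 libraries.

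**Figure D4:**
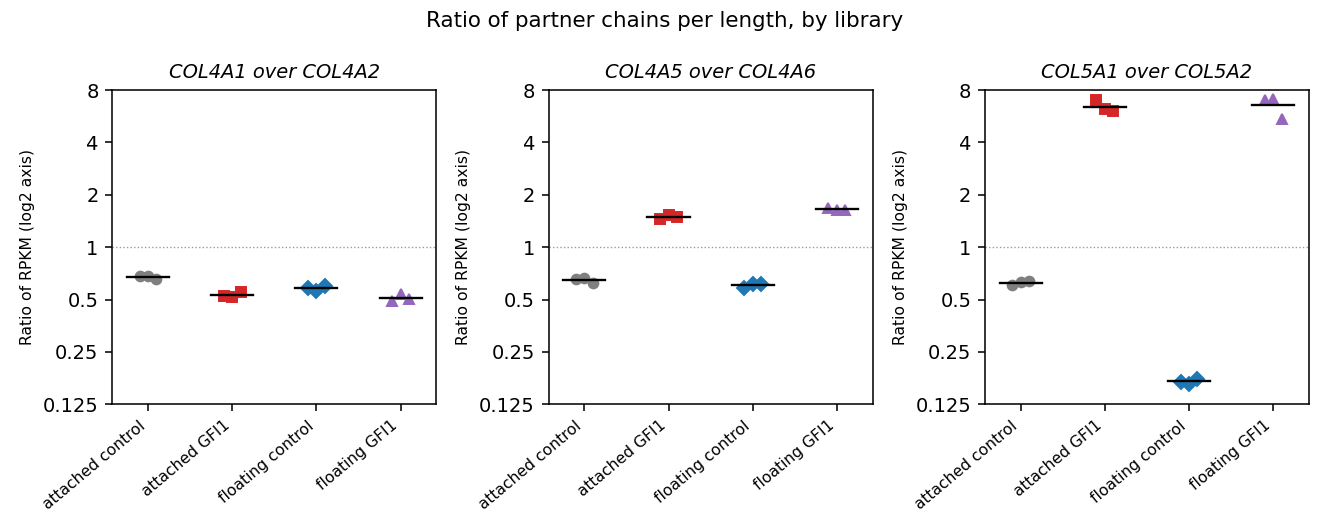
Ratio of partner chains per length (y axis, log2 axis) by group (x axis), 1 point per library with the mean as the black line, for COL4A1 over COL4A2, COL4A5 over COL4A6 and COL5A1 over COL5A2. The last was 0.624 in attached control against 6.43 in attached GFI1, and 0.169 against 6.53 in the floating groups, and COL4A5 over COL4A6 crossed 1.

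COL3A1, the chain of reticular fibres, lies 19149 bases from COL5A2 on chromosome 2 and had other values. It had 9 to 46 counts per library, at 0.655, 1.09 and 1.55 CPM in attached control, 1.52, 1.66 and 1.60 in attached GFI1, 0.652, 0.542 and 0.680 in floating control and 1.99, 2.10 and 2.29 in floating GFI1. The attached groups overlapped and the floating groups did not. It rose by log2 1.75 ± 0.30 in floating cells, and its attached log2 value of 0.54 ± 0.28 did not pass (edgeR adjusted p = 0.0961). The attached value passed without attached control replicate 3 (0.86) and under scaling by library size alone (0.68).

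COL1A1, the main chain of type I collagen, was low and fell. It was at 12.1, 13.9 and 13.0 CPM in attached control, 6.87, 6.32 and 5.91 in attached GFI1, 9.42, 9.93 and 8.33 in floating control and 2.92, 3.69 and 3.78 in floating GFI1. The 4 groups did not overlap. Its log2 fold change with GFI1 was -1.03 ± 0.11 attached and -1.41 ± 0.13 floating. COL27A1, a fibrillar chain known from cartilage, fell by 1.47 ± 0.10 and 1.31 ± 0.09 on the log2 scale. It was at 48.4, 55.5 and 55.4 CPM in attached control, 20.3, 19.0 and 18.5 in attached GFI1, 68.7, 69.8 and 72.7 in floating control and 32.0, 32.2 and 21.4 in floating GFI1. The third floating GFI1 library lay apart from the other two, yet below every control library.

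COL11A2, a partner chain of cartilage type XI collagen, had 2.44 to 3.58 CPM in attached control and 4.01 to 5.07 in attached GFI1, and rose by log2 0.56 ± 0.18, a call lost without attached control replicate 1 (0.43). In floating cells its log2 value was 0.29 ± 0.15 and did not pass. It passed at 0.42 under scaling by library size alone and without floating GFI1 replicate 3. COL5A3, the rarer type V chain, was at 0.357, 0.109 and 0.287 CPM in attached control and at 0.338, 0.600 and 0.801 in attached GFI1, which overlap. Its attached call (log2 1.22 ± 0.49, edgeR adjusted p = 0.0328) was lost under DESeq2, without the filter on low counts, and without attached control replicate 2 or 3 or attached GFI1 replicate 2 or 3, and its floating value of 0.35 ± 0.37 did not pass.

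The anchoring fibril chain COL7A1 (chr3:48564073-48595267) rose. It was at 356.1, 365.0 and 375.6 CPM in attached control and at 592.4, 583.5 and 581.5 in attached GFI1. In floating cells it was at 314.4, 294.1 and 291.3 in control and at 650.0, 648.9 and 563.4 in GFI1 libraries. No GFI1 library overlapped a control library. The log2 fold change was 0.68 ± 0.05 attached and 1.05 ± 0.05 floating. COL18A1 (chr21:45405137-45513720) had 400.2 to 409.6 CPM in attached control and 518.6 to 542.7 in attached GFI1, and rose by log2 0.39 ± 0.04 attached and 0.50 ± 0.04 floating. The gene SLC19A1 overlaps it on the other strand with 356 to 885 counts, up to 13.7% of those of COL18A1 in a library.

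Of the FACIT chains, COL12A1 (chr6:75084326-75206051) rose in both states. It was at 17.0, 20.6 and 21.8 CPM in attached control, 45.7, 45.2 and 46.9 in attached GFI1, 4.33, 3.49 and 4.42 in floating control and 16.9, 17.97 and 17.1 in floating GFI1. The groups with GFI1 were higher than their controls without overlap. The rise was log2 1.21 ± 0.08 attached and 2.08 ± 0.11 floating. COL16A1, another FACIT chain, had 10.1 to 10.96 CPM in attached control and 16.2 to 17.5 in attached GFI1, and rose by log2 0.65 ± 0.09 attached and 0.67 ± 0.10 floating.

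The remaining FACIT chains were low. COL21A1 was at 1.49, 0.815 and 1.78 CPM in attached control and 0.563, 0.323 and 0.651 in attached GFI1, and fell by 1.41 ± 0.36 on the log2 scale. Its floating groups lay at 1.02 to 1.25 and 0.497 to 0.827 CPM, with a log2 value of -0.79 ± 0.36 that did not pass (edgeR adjusted p = 0.0619). COL22A1 had 0 to 3 counts in attached control and 4 to 15 in attached GFI1, summing to 4 and 33 counts, a ratio of 7.31 after scaling with a 95% exact binomial interval of 2.60 to 28.4 for counting error. In floating cells the ratio was 2.82 (1.29 to 6.80). The floating call (log2 1.47 ± 0.62, edgeR adjusted p = 0.0447) was lost under DESeq2, without the filter on low counts and without any of 7 single libraries, at 1.04 to 1.72. COL9A3 had 10 to 24 counts per library and passed no test. The gene TCFL5 overlaps it on the other strand with 253 to 451 counts, and reads of the overlap cannot be told apart. COL20A1 did not pass for GFI1 in either state, with log2 values of 0.08 ± 0.18 and 0.20 ± 0.14. Its floating value passed under scaling by library size alone, at 0.33.

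Some chains of other classes were low in every group. COL28A1, a chain with von Willebrand factor domains, was at 0.179, 0.163 and 0.172 CPM in attached control and at 2.20, 1.62 and 1.15 in attached GFI1, and at 0.0593, 0.120 and 0.283 and then 1.76, 1.54 and 1.49 in the floating groups. The attached groups summed to 9 counts in control and 97 in GFI1 libraries, a ratio of 9.55 after scaling, with a 95% exact binomial interval of 4.83 to 21.5 that covers counting error only. The floating groups summed to 8 and 90 counts, a ratio of 10.2 (4.96 to 24.4). The fitted floating log2 fold change was 3.30 ± 0.44, with 2.93 without floating control replicate 1 and 4.06 without floating control replicate 3. COL26A1 went the other way, at 3.75, 4.62 and 5.22 CPM in attached control and 0.845, 0.785 and 0.601 in attached GFI1, and at 5.28, 4.39 and 5.21 against 0.386, 0.882 and 0.348 in floating cells. It fell by 2.60 ± 0.25 and 3.20 ± 0.27 on the log2 scale.

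COL13A1, a transmembrane chain of cell adhesion sites, was at 1.19, 1.03 and 0.803 CPM in attached control and 0, 0.415 and 0.150 in attached GFI1, and at 1.72, 3.07 and 1.93 against 0.165, 0.1103 and 0.298 in floating cells. It fell by 2.29 ± 0.53 attached and 3.47 ± 0.48 floating on the log2 scale. The attached value was -3.56 without attached GFI1 replicate 2 and -1.78 without attached GFI1 replicate 1. COL10A1, known from growth plate cartilage, was at 0.179, 0.326 and 0.344 CPM in attached control and 1.01, 1.11 and 0.951 in attached GFI1, a rise of log2 1.82 ± 0.40. The gene lies inside NT5DC1, which had 669 to 909 counts, and reads of the overlap cannot be told apart. Its floating call (log2 0.96 ± 0.36, edgeR adjusted p = 0.0265) was lost under DESeq2, without the filter on low counts, and without floating control replicate 1 or 3 or floating GFI1 replicate 2 or 3.

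COL6A1 and COL6A2, beaded filament chains, showed no call for GFI1 in the main test. In floating cells both passed under scaling by library size alone, at log2 0.29 and 0.21. That scaling moved the floating median of all genes to 0.14. COL6A1 was at 18.2 to 26.9 CPM over the 12 libraries and COL6A2 at 13.4 to 19.1. The 95% intervals of the log2 fold change in attached cells were -0.26 to 0.12 for COL6A1 and -0.30 to 0.06 for COL6A2, where the sign of both values turned under scaling by library size alone (0.08 and 0.03), and in floating cells -0.03 to 0.35 and -0.10 to 0.26. Their ratio per length stayed between 1.25 and 1.44 as a group mean.

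Suspension of control cells changed 17 of 27 chains, against 40.1% of all tested genes, with 9 higher (19.6%) and 8 lower (20.5%). Of these, 5 passed with 2-fold or more (5.1% of all genes), 3 higher (3.7%) and 2 lower (1.4%). Attached and floating libraries did not overlap for 19 chains, against 49.9% of all genes. In GFI1 cells 13 passed against 31.3% of all genes, with 5 higher (15%) and 8 lower (16.3%). By 2-fold or more there were 2 (2.8% of all genes), 1 higher (1.98%) and 1 lower (0.824%), and libraries did not overlap for 14 chains, against 41.4% of all genes. The median log2 fold change was 0.13 in control cells and -0.04 in GFI1 cells, and the median size was 0.45 and 0.33 against 0.24 and 0.19 for all genes.

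**Figure D5:**
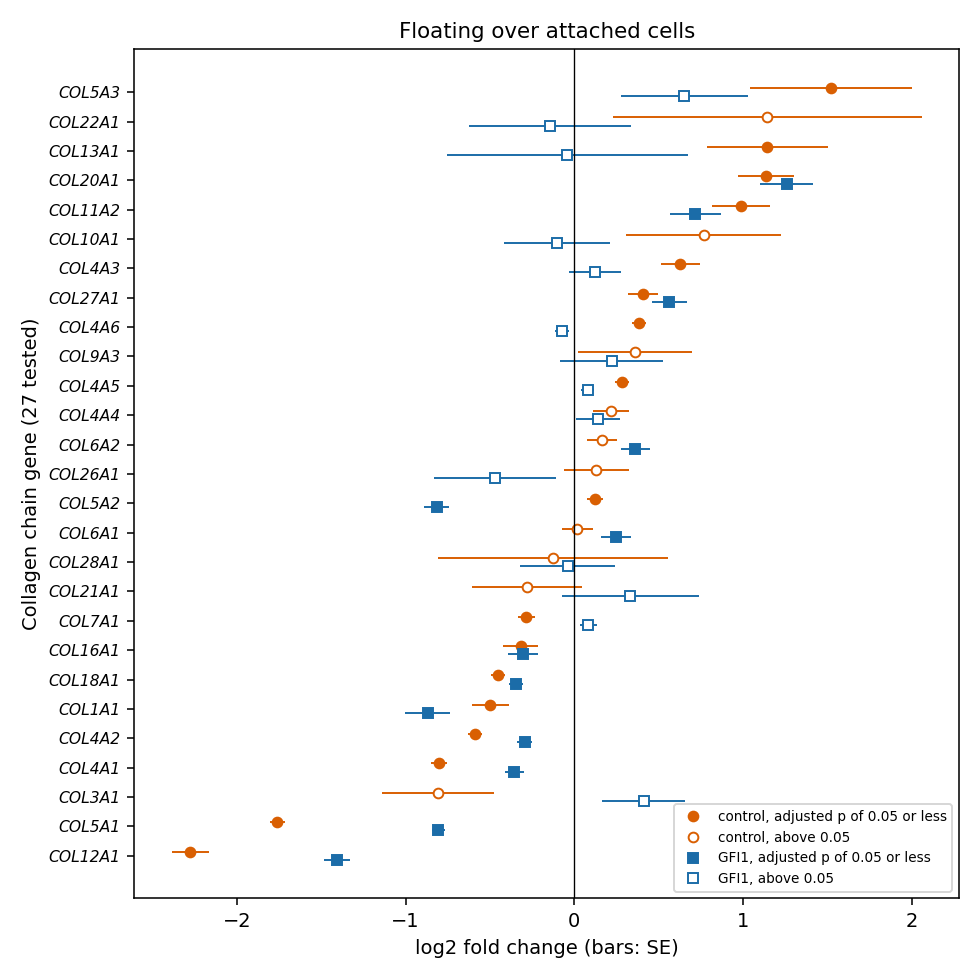
Log2 fold change of floating over attached cells (x axis, bars: SE) for the 27 tested chains (y axis), in control cells (orange circles) and GFI1 cells (blue squares), filled where the adjusted p was 0.05 or less. COL12A1 lies lowest at -2.28 in control and -1.41 in GFI1 cells, followed by COL5A1 in control cells at -1.76.

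The chains that fell most in suspended control cells were COL12A1 and COL5A1, and in GFI1 cells COL12A1 again led, followed by COL1A1, COL5A2 and COL5A1 at nearly equal size. COL12A1 fell by 2.28 ± 0.11 on the log2 scale in control cells and by 1.41 ± 0.08 in GFI1 cells. COL5A1 fell by 1.76 ± 0.04 and by 0.81 ± 0.04, and no floating library overlapped an attached library of the same cells. COL4A1 and COL4A2 fell in suspension as well, by 0.80 ± 0.05 and 0.59 ± 0.04 in control cells and by 0.36 ± 0.06 and 0.30 ± 0.04 in GFI1 cells. COL1A1 fell by 0.50 ± 0.11 and 0.87 ± 0.14, and COL18A1 by 0.45 ± 0.04 and 0.35 ± 0.04. COL16A1 fell by 0.32 ± 0.11 and 0.31 ± 0.09, calls lost in control cells without attached or floating control replicate 3 and in GFI1 cells without attached GFI1 replicate 1. COL7A1 fell by 0.29 ± 0.05 in control cells and had 0.08 ± 0.05 in GFI1 cells, which did not pass.

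Other chains rose in suspension. COL20A1, a FACIT chain without a GFI1 call, was at 3.45, 4.18 and 3.16 CPM in attached control, 8.12, 7.22 and 8.44 in floating control, 2.65, 4.71 and 3.96 in attached GFI1 and 9.87, 9.43 and 8.16 in floating GFI1. The attached and floating groups did not overlap in either cell population. It rose by log2 1.14 ± 0.17 in control and 1.26 ± 0.16 in GFI1 cells, the only chain to rise by 2-fold or more in both. COL11A2 rose by log2 0.99 ± 0.17 and 0.72 ± 0.15, and COL27A1 by 0.41 ± 0.09 and 0.56 ± 0.10.

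In control cells COL4A3, COL4A5 and COL4A6 rose in suspension, by log2 0.63 ± 0.11, 0.28 ± 0.04 and 0.38 ± 0.04, and in GFI1 cells their values of 0.12 ± 0.16, 0.08 ± 0.04 and -0.07 ± 0.04 did not pass. COL4A4, the partner of COL4A3, had 0.22 ± 0.11 in control and 0.14 ± 0.13 in GFI1 cells and passed in neither. In control cells COL4A1 and COL4A2 were thus lower, the X-linked pair higher, and of the remaining pair COL4A3 alone passed. COL13A1 and COL5A3 rose in control cells by log2 1.14 ± 0.36 and 1.52 ± 0.48, from low attached control levels of 0.171 and 0.0372 RPKM. The COL13A1 call was lost without attached control replicate 3 or floating control replicate 2, and the COL5A3 call without attached control replicate 2. COL5A2 had log2 0.12 ± 0.05 in control cells, at the edge of the threshold (edgeR adjusted p = 0.0497), and fell by 0.82 ± 0.07 in GFI1 cells. COL6A1 and COL6A2 passed in GFI1 cells only, at log2 0.25 ± 0.09 and 0.36 ± 0.09, and the difference from control cells did not pass (edgeR adjusted p = 0.306 and 0.370). The COL6A1 call was lost under DESeq2 and with only the groups compared (both 0.24), with a gene length offset (0.22) and without attached GFI1 replicate 2 or 3 or floating GFI1 replicate 1 (0.16 to 0.21).

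Whether the difference between GFI1 and control cells was unlike in floating and attached cells was tested directly by the interaction term. It passed for 8 of 27 chains, against 10.8% of all tested genes, with 5 positive (4.76%) and 3 negative (6.01%). Of the called interactions none was of 2-fold or more (1.35% of all genes passed both limits). COL3A1, COL13A1 and COL22A1 had larger values, 1.22 ± 0.41, -1.18 ± 0.82 and -1.29 ± 1.03, that did not pass. A positive value means that the log2 effect of GFI1 was more positive in floating cells. COL5A1 (0.95 ± 0.06, edgeR adjusted p = 8.41e-11) and COL5A2 (-0.94 ± 0.09, edgeR adjusted p = 5.74e-08), the type V partners, had values of nearly equal size and opposite sign. COL12A1 (0.87 ± 0.14), COL4A1 (0.45 ± 0.07), COL7A1 (0.37 ± 0.07) and COL4A2 (0.30 ± 0.06) were positive. For COL4A1 and COL4A2 this means a smaller fall in floating cells, and for COL12A1 and COL7A1 a larger rise.

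COL4A6 (-0.46 ± 0.06, edgeR adjusted p = 9.63e-06) and COL4A5 (-0.20 ± 0.06, edgeR adjusted p = 0.0219) were negative, so with GFI1 COL4A6 fell more and COL4A5 rose less in floating than in attached cells. The COL4A5 value was lost without the filter on low counts and with an offset for gene length (log2 -0.17). It was also lost, at -0.17 to -0.21, without attached control replicate 3, attached GFI1 replicate 2 or 3, or floating control replicate 1 or 2. The COL3A1 value (edgeR adjusted p = 0.0603) passed without attached control replicate 1, at 1.47. In floating GFI1 libraries GFI1 itself had 8649 to 12796 counts, against 5154 to 6378 in attached GFI1 libraries, and the part of this difference in the interaction values was not tested.

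Genes that modify, process, bind or degrade collagen were read from a list of 40, of which 31 were tested. With GFI1, 8 rose and 17 fell in attached cells and 9 rose and 16 fell in floating cells, that is 25 of 31 in each state against 62.3% and 60.4% of all genes. Past 2-fold there were 5 of 31 (16.1%) in each state, which is below the 18.2% and 17.3% of all genes. The median log2 fold change was -0.21 and -0.24. Of the 19 tested modification enzymes and chaperones, 3 rose and 13 fell in each state, where 29.5% and 32.8% of all genes rose and fell in attached cells and 29.3% and 31.1% in floating cells.

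PLOD2, the lysyl hydroxylase of the collagen telopeptides, was at 304.9, 299.4 and 300.3 CPM in attached control and at 96.7, 100.02 and 97.2 in attached GFI1, a fall of 1.62 ± 0.06 on the log2 scale. In floating cells it fell by 1.43 ± 0.06. PLOD1, a lysyl hydroxylase of the helix, fell by 0.54 ± 0.05 and 0.69 ± 0.05. P4HA3, an alpha subunit of prolyl 4-hydroxylase, was at 8.46, 8.42 and 10.2 CPM in attached control and at 1.75, 1.34 and 1.75 in attached GFI1, and fell by 2.49 ± 0.16 and by 1.25 ± 0.16 in floating cells.

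ADAMTS14, a protease that removes the procollagen amino propeptide, rose most. It was at 0.298, 0.434 and 0.517 CPM in attached control, 22.9, 24.1 and 24.1 in attached GFI1, 0.474, 0.662 and 1.02 in floating control and 24.7, 24.8 and 26.3 in floating GFI1. The log2 fold change was 5.81 ± 0.16 attached and 5.11 ± 0.15 floating, from 5 to 18 counts per control library. TLL1, a protease for the carboxyl propeptide, had 13 to 23 counts per control library and 0 to 2 per GFI1 library, that is 53 against 1 counts attached and 52 against 2 floating. The lower 95% bounds of the scaled ratio of control to GFI1 were 10.3 and 7.55, by the exact binomial interval. TLL1 was named after its values were seen.

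DDR1, a receptor tyrosine kinase for collagen, was at 99.2, 95.4 and 94.9 CPM in attached control and at 237.2, 230.6 and 232.1 in attached GFI1. It rose by log2 1.27 ± 0.04 attached and 0.70 ± 0.04 floating. MRC2, an uptake receptor for collagen fragments, rose by log2 0.66 ± 0.04 and 0.72 ± 0.04. MMP2, a gelatinase, had 19.4 to 21.6 CPM in floating control and 7.22 to 8.56 in floating GFI1, a fall of 1.41 ± 0.11, and its attached value of -0.30 ± 0.12 passed narrowly (edgeR adjusted p = 0.0307) and was lost under DESeq2, with library size scaling alone, with only the groups compared, and without attached control replicate 1 or 3 or attached GFI1 replicate 1 or 3. The interaction passed for 6 of the 31 (10.8% of all genes), namely P4HA3 (1.23), PPIB (-0.24), MIA3 (-0.33), MIA2 (-0.37), DDR1 (-0.57) and MMP2 (-1.11).

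In suspension most called genes of the list were higher. In control cells 15 rose, 2 fell and 14 were not called, where 19.6% of all genes rose and 20.5% fell. In GFI1 cells 14 rose, 1 fell and 16 were not called, where 15% of all genes rose and 16.3% fell. The median was 0.23 and 0.14, against 0.01 and 0.00 for all genes. P4HA1, the main alpha subunit of prolyl 4-hydroxylase, was at 52.0, 49.0 and 51.1 CPM in attached control and at 128.9, 135.8 and 130.9 in floating control, and at 64.7, 61.9 and 59.8 against 178.8, 227.5 and 139.7 in GFI1 cells. It rose by log2 1.38 ± 0.10 and 1.55 ± 0.10, and P4HA2, a further alpha subunit, by 0.89 ± 0.08 and 1.11 ± 0.08.

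MMP2 rose by log2 1.03 ± 0.11 in control cells, from 8.47 to 11.4 CPM attached to 19.4 to 21.6 CPM floating, and its value of -0.08 ± 0.12 in GFI1 cells did not pass. DDR1 rose by log2 0.50 ± 0.04 in control cells and MRC2 by 0.34 ± 0.04 in GFI1 cells. P3H3, a prolyl 3-hydroxylase family member, fell by 0.35 ± 0.07 in control cells, and COLGALT1, a collagen galactosyltransferase, fell by 0.14 ± 0.04 in GFI1 cells. P4HA3 fell by 0.54 ± 0.14 in control cells and rose by 0.69 ± 0.19 in GFI1 cells. Its direction thus differed from that of P4HA1 and P4HA2 in control cells only.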

How the data were processed

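Total RNA of 12 A549 libraries was poly-A selected and sequenced on a NovaSeq instrument. The deposited table holds the authors' raw counts per gene, with no normalization, with coordinates on hg38. The study's methods name Hisat2 and featureCounts, while the submitters' processing notes name Bowtie2 and HTSeq, so the aligner and counter are uncertain, and the annotation release and strand setting were not given in the sources used here. The labels do not say whether replicates came from separate cultures, so p-values measure the spread between these libraries. Counts were filtered with edgeR 4.0.16 (filterByExpr, minimum count 10, minimum total 15) in R 4.3.3, scaled by TMM and fitted over all 4 groups with edgeR's quasi-likelihood test. The 5 contrasts were adjusted by Benjamini-Hochberg over 17829 genes, and a gene was called at an adjusted p of 0.05 or less. CPM was divided by the table's gene length in kilobases for RPKM. For the 3 genes named with a group at 3 counts or fewer per library, the ratio of summed counts is given with a 95% exact binomial interval. The fit was run on simulated data with 200 planted 2-fold changes, split between higher and lower. Far more genes were called in these data, 11102 for GFI1 in attached cells, so that run does not test the scaling used here. The members and gene lists were chosen with earlier results of these data known. Chains were named when they had a mean of at least 1 CPM in a group and a called change of 2-fold or more in a pairwise contrast, or shared a molecule type with such a chain, and for each pairwise contrast the 3 collagen-handling genes that rose and the 3 that fell with the smallest adjusted p were named. Alternatives were DESeq2 1.42.0, other filters and scalings, a gene length offset, a 2-fold limit, a replicate block and leaving out each library.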

Additional observations from a re-analysis of the deposited data

Results flagged for a closer look

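For 14 genes the effect of GFI1 in floating cells differed from that in attached cells by the interaction term of edgeR's quasi-likelihood test, given here as the floating minus the attached log2 fold change with its SE and adjusted p. Among the chains the values were COL5A1 0.95 ± 0.06 (adjusted p = 8.41e-11), COL5A2 -0.94 ± 0.09 (5.74e-08), COL12A1 0.87 ± 0.14 (0.000108), COL4A6 -0.46 ± 0.06 (9.63e-06), COL4A1 0.45 ± 0.07 (0.000112), COL7A1 0.37 ± 0.07 (0.000668), COL4A2 0.30 ± 0.06 (0.00159) and COL4A5 -0.20 ± 0.06 (0.0219). Among the collagen-handling genes they were P4HA3 1.23 ± 0.24 (0.000765), MMP2 -1.11 ± 0.16 (2.75e-05), DDR1 -0.57 ± 0.06 (2.74e-07), MIA2 -0.37 ± 0.09 (0.00511), MIA3 -0.33 ± 0.07 (0.00189) and PPIB -0.24 ± 0.07 (0.0231). MIA2 and MIA3 encode exporters of large cargo such as procollagen from the endoplasmic reticulum, and PPIB encodes a prolyl isomerase of the same compartment. The PPIB value was lost with a gene length offset and without attached control replicate 2, attached GFI1 replicate 1 or 2, or floating control replicate 1 or 2 (-0.19 to -0.22).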

How the results depend on the processing

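Of 218 recomputed counts of called genes, 209 stayed within 1.5 times the reported count. A limit of 2-fold as well gave 5 chains for suspension in control cells, 2 for suspension in GFI1 cells and 0 for the interaction, which had 8 chains by edgeR without that limit, and 5, 5, 2, 2 and 2 collagen-handling genes in the order of both GFI1 effects, both suspension effects and the interaction. Leaving out 1 library gave 5 to 10 collagen-handling genes for the interaction, with 10 without floating GFI1 replicate 3. For the chains it gave 20 to 22 and 18 to 20 (GFI1, attached and floating), 14 to 17 and 12 to 14 (suspension, control and GFI1 cells) and 7 to 9 (interaction).

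Replicate numbers were shared only as numbers: 12 same-numbered pairs correlated at -0.016 to 0.0089, and 3 of 12 libraries correlated best with their own number. With the replicate block, 22, 20, 17, 13 and 8 chains were called, as without it.

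Of 2752 recomputed values of the 27 tested chains, 2639 kept direction and call, 61 lost and 16 gained a call, and 36 changed sign. Of 1546 values of 15 named collagen-handling genes, these counts were 1485, 19, 24 and 18. No value that changed sign had been called. Sign changes under library size scaling alone were, for GFI1 in attached cells, COL6A1 0.076, COL6A2 0.027, P4HA2 0.047 and MIA2 0.090, for GFI1 in floating cells P3H3 0.028 and for the interaction COL16A1 -0.0041. For suspension in control cells the gene length offset, without and with the replicate block, gave COL6A1 -0.021 and -0.023, COLGALT1 -0.016 in both and TLL1 -0.030 and -0.039. With the replicate block alone COL13A1 for suspension in GFI1 cells was 0.010. Leaving out 1 library changed the sign over these ranges: for GFI1 in attached cells COL20A1 -0.12 to 0.27 and COL6A1 -0.19 to 0.0040, and in floating cells P4HA2 -0.014 to 0.25. For suspension in control cells they were COL28A1 -0.88 to 0.24, COL6A1 -0.033 to 0.074 and TLL1 -0.22 to 0.25. For suspension in GFI1 cells they were COL13A1 -0.54 to 1.23, COL10A1 -0.26 to 0.051, COL28A1 -0.24 to 0.20, COL22A1 -0.59 to 0.15, MMP2 -0.17 to 0.0082, P3H3 -0.12 to 0.025, PPIB -0.060 to 0.010 and TLL1 -1.80 to 2.62. For the interaction they were COL13A1 -1.68 to 0.090, COL4A4 -0.20 to 0.0028, COL28A1 -0.28 to 0.84, COL20A1 -0.060 to 0.33, COL16A1 -0.086 to 0.12, COL9A3 -0.45 to 0.032, P4HA1 -0.040 to 0.33 and TLL1 -1.82 to 2.62. The cause was not tested. COL5A2 in suspended control cells lost its call in 13 settings, at log2 0.08 to 0.14. Without floating GFI1 replicate 3, calls were gained for COL27A1 (interaction, 0.33) and COL7A1 (suspension in GFI1 cells, 0.15). Within groups, the chi-square per gene between replicates was 2.01 to 3.76 in 3 groups and 4.84 to 11.9 in floating GFI1, highest between its replicates 2 and 3. Scaling by library size alone moved the median of all genes to 0.14 in both GFI1 effects. Chains under about 10 counts in a group limit what could be called.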
